A study of Oryza sativa with 6 samples.

Results

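Cyclins and their partner enzymes, the cyclin-dependent kinases (CDKs), drive the cell cycle, and their transcripts were read here in rice stems of a jasmonate receptor genotype, coi1-13, and of wild type. A cyclin switches on a CDK and steers it to its targets. D type cyclins pair with A type CDKs to open the way into DNA synthesis, A type cyclins act from synthesis towards mitosis, and B type cyclins, with A and B type CDKs, drive mitosis itself. Other families with the same names serve transcription (T, H and C types), RNA splicing (L type and G type CDKs) or phosphate signalling (P types, by likeness to a yeast cyclin). In grass stems, new cells come from an intercalary meristem at the base of each internode, and the cells above it then elongate.

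The arrays held RNA from young uppermost internodes of rice (Oryza sativa). There were 3 arrays of coi1-13, which the labels call a mutant, and 3 of wild type Nipponbare, given as biological replicates. COI1 encodes an F-box protein that acts as a jasmonate receptor, and the labels do not describe the lesion, its background, the plants' age or any pooling. The array contrast is between genotypes, and within it the mitotic A and B type cyclins are set beside the remaining members. Members were all genes whose symbol or synonym begins with 1 of 16 cyclin and CDK prefixes, a rule that uses no measured value. It matched 42 genes, of which 35 had a probe set assigned to a single gene, out of 17905 such genes on the array. These 35 genes had 45 of the 22436 single-gene probe sets. The genes CYCA3-1, CYCB1-5, CYCD2-1, CYCT1-1, CDKB1-1, CDKC-2 and CDKF-2 had none and are not analysed here. CYCT1-1 is also a listed synonym of LOC4352229, which was measured and appears below under another name. Apart from summed marker signals, the levels below are log2 signals of single probe sets. Levels of different genes are therefore not set against each other, and changes are coi1-13 minus wild type.

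Pearson's r between arrays was 0.977 to 0.980 within a genotype and 0.943 to 0.946 between genotypes, over the 34355 tested probe sets, which are not independent replicates. Of the 45 member probe sets, 44 entered the test, and 41 of these exceeded all 33 negative controls on each of the 6 arrays. The probe set left out was that of CYCF2-2, which lay above those controls on no array of either genotype. In bulk RNA, fewer dividing cells and less transcript per dividing cell cannot be told apart. Stem markers (the KNOX genes OSH1, OSH6 and OSH71 and the cellulose synthase genes CESA4, CESA7 and CESA9) lay above the controls on every array, and so did 7 of 8 measured anther and tapetum markers.

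Mitotic cyclin transcripts were lower in coi1-13. All 4 measured B type genes fell, to between 52.8% and 63.9% of the wild type signal, and so did CYCA2-1. The remaining A types, CYCA1-4 and CYCA3-2, lay lower on every coi1-13 array than on any wild type array but did not pass the test. Of the 7 A and B type genes, 5 fell and none rose, with a median log2 change of -0.69. Each gene is represented by its brightest probe set, and on that basis 26.7% of the 16706 tested genes of the array fell and 21.2% rose, with a median change of -0.04 (limma, Benjamini-Hochberg adjusted p under 0.05). Of the 27 other cyclin and CDK genes tested, 12 fell and 4 rose, with a median of -0.14.

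CYCB1-1 (LOC4327547) encodes a B1 cyclin, whose Arabidopsis relative is the usual marker of cells in G2 and mitosis. It had log2 signals of 9.08, 9.16 and 9.28 in coi1-13, against 9.91, 9.85 and 9.83 in wild type. The groups were apart by more than either spread, and the change was -0.69 ± 0.07 (SE), a 1.61-fold fall (adjusted p = 1.9e-05, limma). CYCB2-1 (LOC4336670) and CYCB2-2 (LOC4342121) encode B2 cyclins, which partner B type CDKs in rice. CYCB2-1 read 8.19, 8.07 and 8.03 in coi1-13 and 8.77, 8.67 and 8.78 in wild type. This was a fall of 1.57-fold with no overlap (-0.65 ± 0.09, SE; adjusted p = 0.00018, limma).

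CYCB2-2 was read by a pair of probe sets that moved alike. The brighter one gave 8.16, 8.24 and 8.60 in coi1-13 and 8.93, 9.22 and 9.22 in wild type. The dimmer one, whose name marks it as open to cross-hybridisation, gave 6.99, 6.74 and 6.95 in coi1-13 and 7.71, 7.66 and 7.68 in wild type. Their falls were 1.73-fold on each, at -0.79 ± 0.13 and -0.79 ± 0.13 (SE; adjusted p = 0.00061 and 0.00083, limma). Both are readings of the same gene and so count once among genes.

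CYCB1-3 (LOC4326914), which the gene table also lists as a CYCB1-1 synonym, showed the widest scatter of the B types. Its signals were 5.37, 5.10 and 5.75 in coi1-13, where 2 of 3 arrays exceeded the controls, and 6.39, 6.75 and 5.85 in wild type. The groups did not overlap, but the gap between them was small beside the spread within each. The change of -0.92 ± 0.31 (SE) passed narrowly (adjusted p = 0.0404, limma). The call was lost without wild type replicate 1 or 2 or coi1-13 replicate 1 or 2, at adjusted p-values of 0.106, 0.162, 0.0827 and 0.112.

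CYCA2-1 (LOC4352280) encodes an A2 cyclin; in Arabidopsis this class promotes mitotic cycles over endoreduplication. It read 7.74, 7.49 and 7.73 in coi1-13, against 8.36, 8.41 and 8.44 in wild type. Its fall was 1.68-fold (-0.75 ± 0.10, SE; adjusted p = 0.00025, limma). CYCA1-4 averaged 9.19 ± 0.08 in coi1-13 and 9.37 ± 0.10 in wild type (SD, n = 3 each), a change of -0.18 with a 95% interval of -0.35 to -0.02 before adjustment (adjusted p = 0.0810, limma). CYCA3-2 averaged 7.45 ± 0.09 in coi1-13 and 7.70 ± 0.07 in wild type (SD, n = 3 each), a change of -0.25 with an interval of -0.50 to 0.01 (adjusted p = 0.129, limma). With each array centred on its median, both were called, at -0.30 and -0.37. The same centring lowered the median change over all tested probe sets from -0.01 to -0.13.

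**Figure D1:**
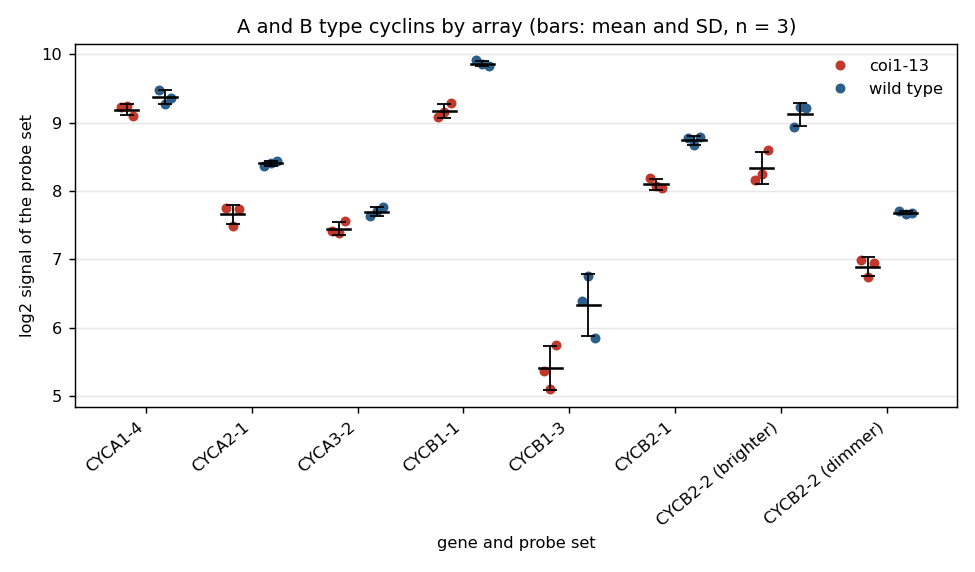
Log2 signal (vertical axis) of each A and B type cyclin probe set (horizontal axis) on the 3 coi1-13 arrays (red, left of each pair) and the 3 wild type arrays (blue, right); dashes are means and bars SD. In each of the 8 probe sets the 3 coi1-13 points lie below the 3 wild type points, with the widest scatter in CYCB1-3.

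Most anther and tapetum markers were called lower, as most mitotic cyclins were, and no meiosis marker passed. Of 8 measured anther and tapetum markers 7 fell (87.5%) and none rose, where 26.7% of genes on the array fell and 21.2% rose. Their summed signal (powers of 2 of the log2 values) was 24311 to 25741 in coi1-13 and 33997 to 34223 in wild type. The steepest fall among these markers was that of CYP703A3, which encodes an anther hydroxylase, at -3.04 ± 0.12 (SE). The smallest called fall was that of C6 (-0.11), and GAMYB did not pass (-0.13). The brightest markers, such as C6 and C4, weigh most in the sum. Of 6 measured meiosis markers none passed in either direction, and their summed signal was 1000.0 to 1041 in coi1-13 and 933 to 1150 in wild type. Each of these measured markers exceeded the controls on at least 2 arrays. Of the markers that matched a gene, 1 of 9 for anther and 3 of 9 for meiosis were not measured. The listed meiosis symbols MEL2, DMC1B, RAD51C and ZIP4 matched no gene that was kept. The part of the anther and tapetum transcripts in the cyclin result was not tested. Of 6 stem markers 4 fell and 2 rose, and of 5 leaf markers 1 fell and 3 rose, beside the same 26.7% and 21.2% for the array. OSH1, CESA4, CESA7 and CESA9 fell, while OSH6 and OSH71 rose. The stem markers summed to 21405 to 22700 in coi1-13 and 26343 to 27889 in wild type. The leaf markers summed to 64041 to 66579 in coi1-13 and 54352 to 56250 in wild type. The part of stem and leaf transcripts in the cyclin result was not tested either.

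**Figure D2:**
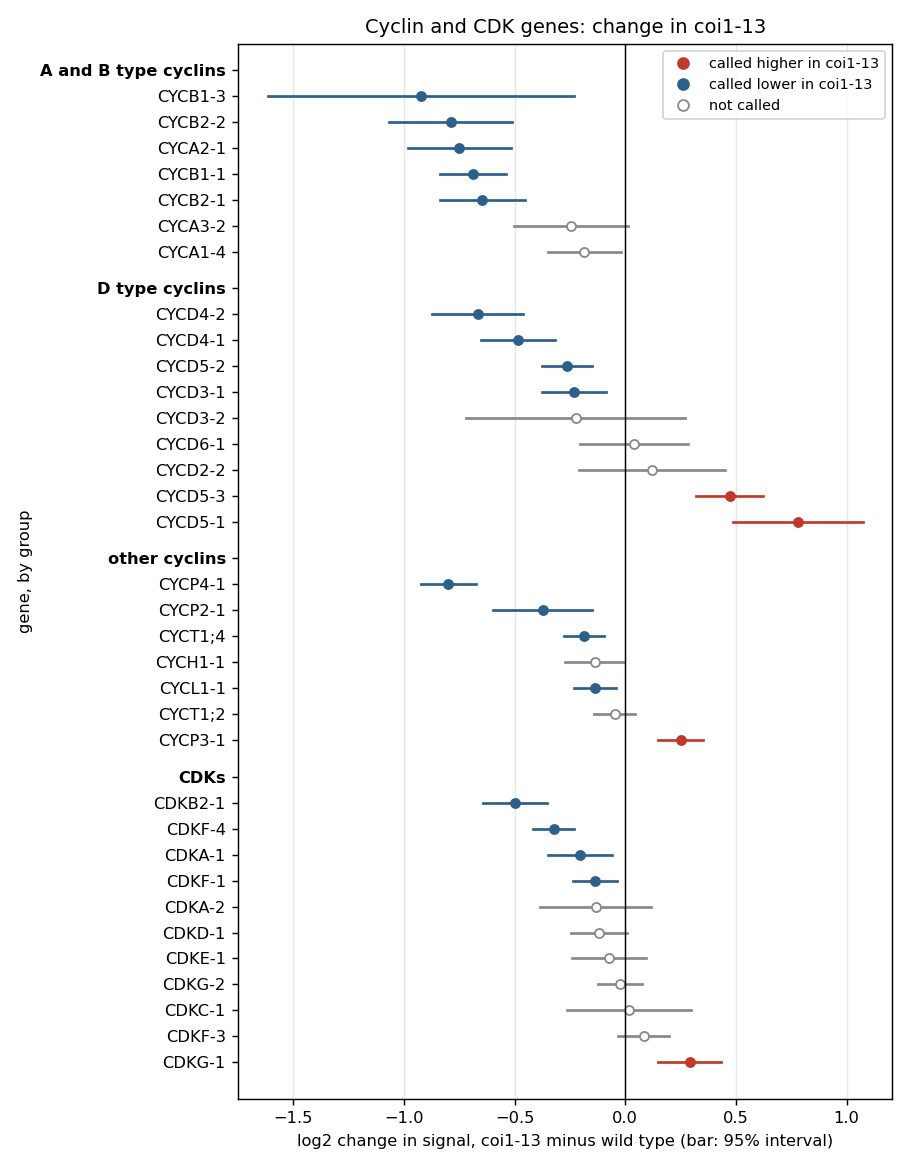
Log2 change in signal, coi1-13 minus wild type (horizontal axis), of the 34 tested cyclin and CDK genes by group (vertical axis), each by its brightest probe set; bars are 95% intervals of the fit, before adjustment. The 17 blue genes passed as lower, the 4 red ones as higher and the 13 open ones did not pass. The points of all 7 A and B type cyclins lie left of 0, whereas D type cyclins spread from -0.67 to 0.78.

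D type cyclins link growth signals to entry into the cycle. Of 9 genes 4 fell (44.4%), 2 rose (22.2%) and 3 did not pass, with a median of -0.22, where 26.7% of genes on the array fell and 21.2% rose. The share that rose is thus near that of the array. CYCD4-2 (LOC4345844) read 8.23, 8.11 and 8.02 in coi1-13 and 8.83, 8.67 and 8.86 in wild type. It fell 1.59-fold (-0.67 ± 0.09, SE; adjusted p = 0.00024, limma). CYCD4-1 (LOC4347313) read 9.04, 9.10 and 9.07 in coi1-13, against 9.46, 9.71 and 9.50 in wild type. The groups were well separated, and the gene fell (-0.48 ± 0.08, SE; adjusted p = 0.00055, limma).

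Smaller falls were seen for CYCD5-2 and CYCD3-1. CYCD5-2 (LOC4352668) averaged 9.86 ± 0.03 in coi1-13 and 10.13 ± 0.03 in wild type (SD, n = 3 each) on its brighter probe set (-0.26 ± 0.05, SE; adjusted p = 0.0021, limma). A dimmer CYCD5-2 probe set did not pass, at -0.07 (interval -0.42 to 0.27). CYCD3-1 (LOC4340499) averaged 9.69 ± 0.10 in coi1-13 and 9.92 ± 0.06 in wild type (SD, n = 3 each), a change of -0.23 ± 0.06 (SE; adjusted p = 0.0181, limma). That call was lost without wild type replicate 3 or coi1-13 replicate 1 or 2, at adjusted p-values of 0.0711, 0.0591 and 0.0678.

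The D type cyclins that rose both belong to the D5 class. CYCD5-1 (LOC4333455) read 7.88, 8.25 and 7.90 in coi1-13, against 7.29, 7.19 and 7.21 in wild type. It was 1.72-fold higher (0.78 ± 0.13, SE; adjusted p = 0.00092, limma). CYCD5-3 (LOC4331985) read 9.46, 9.55 and 9.47 in coi1-13 and 9.03, 8.93 and 9.09 in wild type. Its rise was 1.39-fold without overlap (0.47 ± 0.07, SE; adjusted p = 0.00031, limma). Since CYCD5-2 fell, the class did not move as a block.

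CYCD2-2, CYCD3-2 and CYCD6-1 did not pass, with changes of 0.12, -0.22 and 0.04. Their 95% intervals before adjustment ran from -0.21 to 0.45, from -0.72 to 0.27 and from -0.21 to 0.28. The CYCD3-2 interval takes in the changes of CYCD4-2, CYCD4-1, CYCD5-2 and CYCD3-1, while the other intervals take in none of the called D type changes.

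**Figure D3:**
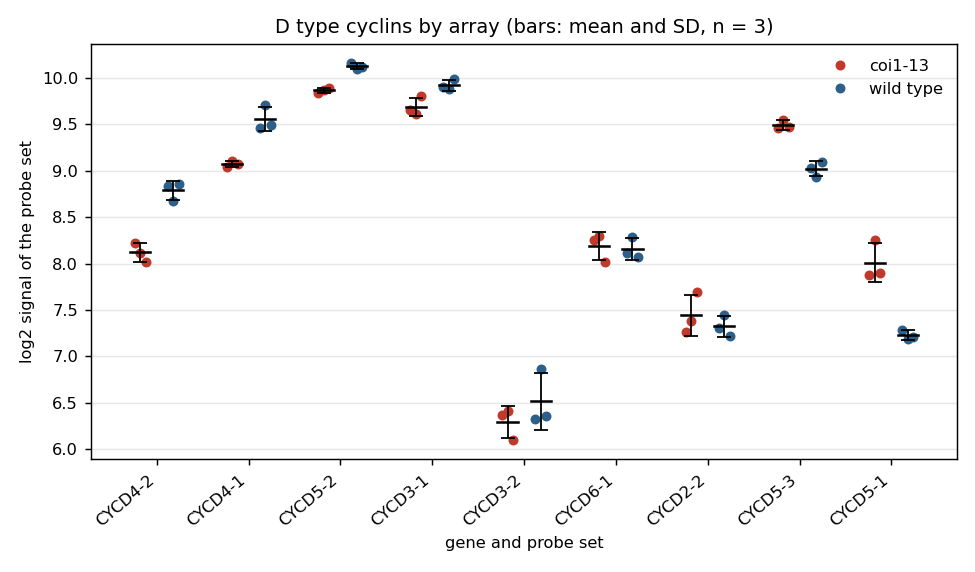
Log2 signal (vertical axis) of the brightest probe set of 9 D type cyclin genes, ordered by change (horizontal axis), on the 3 coi1-13 arrays (red, left) and the 3 wild type arrays (blue, right); dashes are means and bars SD. The coi1-13 points lie below wild type for the 4 genes at the left and above it for CYCD5-3 and CYCD5-1 at the right.

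Cyclins outside the A, B and D types held the member with the smallest p of all cyclins. Of 7 tested genes 4 fell (57.1%), 1 rose (14.3%) and 2 did not pass, beside the array's 26.7% lower and 21.2% higher. CYCP4-1 (LOC4349405), a P type cyclin, read 9.69, 9.70 and 9.59 in coi1-13, against 10.43, 10.42 and 10.52 in wild type. The groups lay far apart for their spread, at -0.80 ± 0.06 (SE), a 1.74-fold fall (adjusted p = 1.6e-06, limma). The other P types differed from each other. CYCP2-1 (LOC4336603) averaged 8.77 ± 0.14 in coi1-13 and 9.15 ± 0.16 in wild type (SD, n = 3 each; -0.37, adjusted p = 0.0144, limma). Its call was lost without wild type replicate 3 (adjusted p = 0.0596) or coi1-13 replicate 3 (adjusted p = 0.0538). CYCP3-1 (LOC4338711) read 11.23, 11.36 and 11.32 in coi1-13 and 11.07, 11.06 and 11.03 in wild type. That is a rise of 1.19-fold (0.25 ± 0.05, SE; adjusted p = 0.0015, limma), and the call was lost under median centring (0.13, adjusted p = 0.121).

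Cyclins of the transcription and splicing kinases moved little. CYCT1;4 (LOC4352229), a T type cyclin of the class that works with C type CDKs in transcript elongation, averaged 11.31 ± 0.04 in coi1-13 and 11.49 ± 0.03 in wild type (SD, n = 3 each; -0.19, adjusted p = 0.0040, limma). CYCT1;2 did not pass (-0.05, interval -0.14 to 0.05). CYCL1-1 (LOC4325450), of the splicing-linked L class, averaged 10.58 in coi1-13 and 10.72 in wild type, a fall of 0.14 on the log2 scale (adjusted p = 0.0280, limma). With 1 array left out, its call was kept only without wild type replicate 1, and for the other arrays the adjusted p ran from 0.0580 to 0.0822. CYCH1-1, partner of the D type CDKs that activate other CDKs, did not pass (-0.14, interval -0.27 to -0.01; adjusted p = 0.0995, limma).

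Among the CDKs the steepest fall was that of the mitotic class. Of 11 CDK genes 4 fell (36.4%), 1 rose (9.09%) and 6 did not pass, with a median of -0.12, beside the same 26.7% and 21.2% for the array. CDKB2-1 (LOC4346016), a kinase specific to plants that acts from G2 into mitosis, read 8.88, 8.93 and 8.85 in coi1-13, against 9.32, 9.41 and 9.41 in wild type. It fell 1.41-fold (-0.50 ± 0.07, SE; adjusted p = 0.00016, limma) and kept its call under all 12 alternatives. CDKA-1 (LOC4331415), the main kinase of both G1 and mitosis, read 11.19, 11.09 and 11.15 in coi1-13 and 11.49, 11.33 and 11.22 in wild type. Its groups came close to each other, and the fall of 0.20 on the log2 scale passed narrowly (adjusted p = 0.0331, limma). The name of this probe set marks it as one that can also read related transcripts.

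The CDKA-1 call was lost without wild type replicate 1 or 2 or coi1-13 replicate 2 or 3, at adjusted p-values of 0.108, 0.0646, 0.108 and 0.0716. A dimmer CDKA-1 probe set did not pass (-0.03, interval -0.84 to 0.78), and it exceeded the controls on 2 of 3 coi1-13 arrays. CDKA-2, the second A type kinase, was read by 3 probe sets, none of which passed, with changes of -0.13, -0.18 and -0.43. On the probe set that gave -0.43 the interval before adjustment was -0.82 to -0.03 (adjusted p = 0.0922, limma).

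CDKE-1 (LOC4349519), of the class that sits in the Mediator complex with C type cyclins, gave readings that differed between probe sets. The brighter probe set read 10.50, 10.41 and 10.51 in coi1-13 and 10.62, 10.67 and 10.36 in wild type, and did not pass (-0.08, interval -0.24 to 0.09). The dimmer one read 10.54, 10.45 and 10.34 in coi1-13, against 9.12, 8.90 and 9.28 in wild type. It was 2.54-fold higher (1.34 ± 0.09, SE; adjusted p = 1.4e-06, limma) and was the only called member probe set that changed at least 2-fold. The probe sets disagree, so no direction is given for the gene, and what part of the transcript either probe set reads was not examined here.

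CDKG-1 (LOC4329899), of the splicing-linked G class, read 10.34, 10.55 and 10.44 in coi1-13 and 10.10, 10.23 and 10.13 in wild type. It rose 1.22-fold (0.29 ± 0.06, SE; adjusted p = 0.0051, limma), but did not pass after median centring (0.17, adjusted p = 0.116). A dim CDKG-1 probe set exceeded the controls on only 1 coi1-13 array and on no wild type array, and it gives no measured difference. CDKG-2 did not pass on any of its 3 probe sets (-0.02, 0.19 and 0.06).

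The F type CDKs were split. CDKF-4 (LOC4330434) averaged 11.42 ± 0.04 in coi1-13 and 11.74 ± 0.05 in wild type (SD, n = 3 each; -0.32, adjusted p = 0.00014, limma), while its dimmer probe set did not pass (-0.09, interval -0.42 to 0.23). CDKF-1 (LOC4340934), whose Arabidopsis relative activates the D type CDKs, averaged 10.81 ± 0.05 in coi1-13 and 10.95 ± 0.01 in wild type (SD, n = 3 each; -0.14, adjusted p = 0.0339, limma). Its call was kept without coi1-13 replicate 2, and without any other array the adjusted p ran from 0.0703 to 0.106. CDKF-3 did not pass (0.08), nor did CDKC-1 (0.02), a kinase of transcript elongation, or CDKD-1 (-0.12), a kinase that activates other CDKs.

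**Figure D4:**
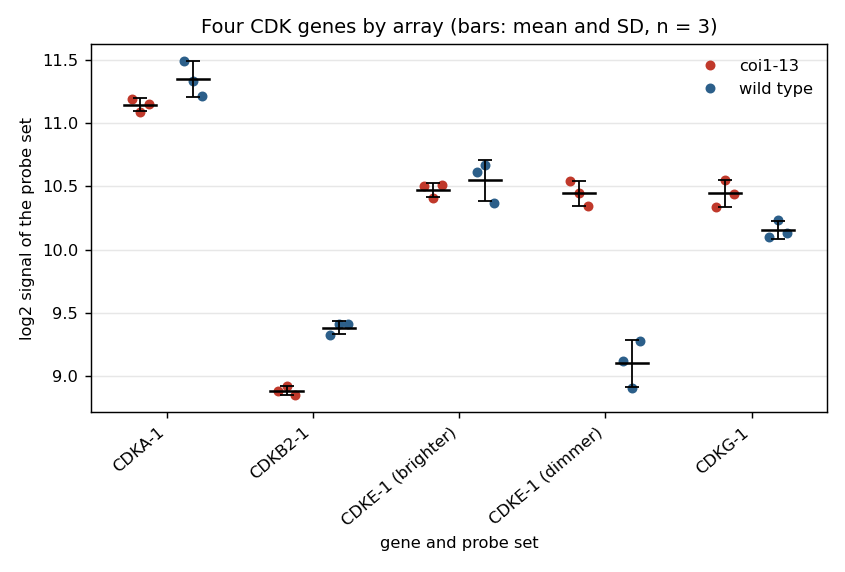
Log2 signal (vertical axis) of probe sets of CDKA-1, CDKB2-1, CDKE-1 and CDKG-1 (horizontal axis) on the 3 coi1-13 arrays (red, left) and the 3 wild type arrays (blue, right); dashes are means and bars SD. CDKB2-1 lies lower and CDKG-1 higher in coi1-13, and of the CDKE-1 probe sets the dimmer one is higher while the brighter one overlaps.

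Counted by probe set, 18 of 44 members fell and 5 rose, where 19.4% of all 34355 tested probe sets fell and 16.5% rose, 35.9% in all. By the same count the groups did not overlap for 21 members that were lower and 6 that were higher in coi1-13, where 25.4% and 22.1% of the array's probe sets, 47.5% in all, were so ordered. Brighter probe sets were called more often. In the upper 40% by mean signal, 28.2% of 22903 probe sets fell and 22.4% rose. Of the 40 member probe sets in that part, 17 fell and 5 rose. Counted by gene, 17 of 34 fell (50.0%) and 4 rose (11.8%), beside the 26.7% and 21.2% given above for genes. Groups did not overlap, with coi1-13 lower, for 20 of the 34 genes, where 33.2% of genes on the array were so ordered. They did not overlap with coi1-13 higher for 4 genes, where the figure for the array was 26.0%. The members were chosen with earlier results of these data known, so these shares are a description. Changes were small in size, since 22 of the 23 called probe sets changed less than 2-fold. With each array centred on its median, the median change over all tested probe sets was -0.13, against -0.01 as deposited. Then 24 member probe sets were lower and 3 higher, where 27.7% of all tested probe sets were lower and 10.8% higher. The A and B type cyclins were then called lower on all 8 probe sets. That centring also brought CYCH1-1, CYCT1;2, CDKD-1 and the CDKA-2 probe set at -0.43 past the threshold as lower (adjusted p = 0.0241, 0.0444, 0.0217 and 0.0311, limma). Without the variance trend in limma the calls of CYCB1-3, CYCD3-1, CYCP2-1, CYCL1-1, CDKA-1 and CDKF-1 were lost, at adjusted p-values from 0.0643 to 0.139. With dim probe sets kept in, CYCB1-3 (0.0901) and CDKA-1 (0.0548) were lost.

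The measured genes that hold the cyclins and CDKs in check, or act beside them, were called at shares near those of the array. A list of inhibitors, regulators and replication genes matched 30 genes, of which 26 had a probe set and 24 were tested. Replication licensing genes were 14 of the 26. The listed symbols of E2F factors, the anaphase promoting complex, the mitotic checkpoint and Aurora kinases matched no gene, so those classes were not read. Of the 24 tested genes 5 fell (20.8%), 4 rose (16.7%) and 15 did not pass, with a median of -0.07, where 26.7% of genes on the array fell and 21.2% rose. The changes of 23 genes measured in both groups ran from -0.95 for ORC1 to 0.86 for SMR1.

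The 2 measured inhibitors of the SIAMESE class, small proteins that bind cyclin and CDK complexes, were higher in coi1-13. Of 6 CDK inhibitor genes tested, 2 rose (33.3%) and 1 fell (16.7%), where 21.2% of genes on the array rose and 26.7% fell. SMR1 (LOC4349289) read 12.71, 12.61 and 12.66 in coi1-13 and 11.78, 11.80 and 11.82 in wild type. It rose 1.82-fold (0.86 ± 0.04, SE; adjusted p = 6.1e-08, limma). EL2 (LOC4331332), known from rice as an elicitor-induced gene whose protein binds A type CDKs and D type cyclins, read 13.74, 13.80 and 13.82 in coi1-13, against 12.97, 12.97 and 13.00 in wild type. It rose 1.75-fold on that probe set and 2.46-fold on a dimmer one (adjusted p = 3.3e-08 and 1.8e-08, limma). Their adjusted p-values lay below that of every cyclin and CDK probe set.

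Of the KRP class, inhibitors that also bind CDK complexes, no measured gene passed as higher. KRP6 (LOC4347280) averaged 11.32 ± 0.01 in coi1-13 and 11.62 ± 0.09 in wild type (SD, n = 3 each; -0.30, adjusted p = 0.00063, limma). Its dimmer probe set did not pass (-0.41, interval -1.07 to 0.25). KRP1, KRP4 and KRP5 did not pass, at -0.01, -0.02 and 0.08, and none of their intervals on the brightest probe set reached beyond -0.24 or 0.23.

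The regulators MYB3R-2, RBR1, RBR2 and CKS1 did not pass on the deposited values. MYB3R-2, a factor that in rice activates B type cyclin genes at the entry to mitosis, averaged 9.97 ± 0.05 in coi1-13 and 9.99 ± 0.06 in wild type (SD, n = 3 each). Its change was -0.01, with an interval of -0.14 to 0.11. RBR1 and RBR2, the retinoblastoma proteins that D type cyclin kinases inactivate, changed by -0.01 and -0.13 (adjusted p = 0.965 and 0.0717, limma). CKS1, a docking subunit of CDKs, changed by -0.07 (adjusted p = 0.324, limma). After median centring RBR2 (-0.25, adjusted p = 0.0146) and CKS1 (-0.19, adjusted p = 0.0439) passed as lower, and the RBR2 groups did not overlap as deposited.

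Replication licensing genes, which load the helicase before DNA synthesis, had 3 of 13 lower (23.1%), 2 higher (15.4%) and 8 that did not pass, near the array's 26.7% and 21.2%. ORC1 averaged 5.89 ± 0.50 in coi1-13 and 6.84 ± 0.17 in wild type (SD, n = 3 each). MCM4 averaged 7.02 ± 0.21 in coi1-13 and 7.74 ± 0.16 in wild type, and MCM3 averaged 7.69 ± 0.12 in coi1-13 and 8.09 ± 0.10 in wild type. For ORC1, MCM4 and MCM3 these were falls of 0.95, 0.73 and 0.40 on the log2 scale (adjusted p = 0.0182, 0.0035 and 0.0167, limma). The ORC1 call was lost without wild type replicate 1 or 2 (adjusted p = 0.0594 and 0.0631), and so was that of MCM3 (0.0581 and 0.0575), which was also lost without coi1-13 replicate 1 (0.0597). MCM2 averaged 8.72 ± 0.20 in coi1-13 and 8.24 ± 0.10 in wild type (SD, n = 3 each), a rise of 1.39-fold (adjusted p = 0.0063, limma). ORC4 rose by 0.25 on the log2 scale, but it did not pass after median centring (0.13, adjusted p = 0.184). PCNA, the sliding clamp of the replication fork, did not pass (0.07, interval -0.11 to 0.26).

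The C type cyclin gene CYCC1;1, which lies outside the member rule and encodes a partner of CDKE, fell on both of its probe sets, by 0.14 and 0.30 on the log2 scale (adjusted p = 0.0307 and 0.0011, limma). The first of these calls was lost without any 1 of wild type replicates 1, 2 and 3 or coi1-13 replicate 2, at adjusted p-values from 0.0665 to 0.105. The second was kept under all 12 alternatives, and the first under 6 of them. The second is from the dimmer probe set, whose name marks it as one that can also read related transcripts. The meiotic cyclin gene SDS lay above the controls on no array of either genotype on its pair of probe sets. ORC5 exceeded the controls on none of the coi1-13 arrays and on 2 of wild type, and its change was not measured.

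**Figure D5:**
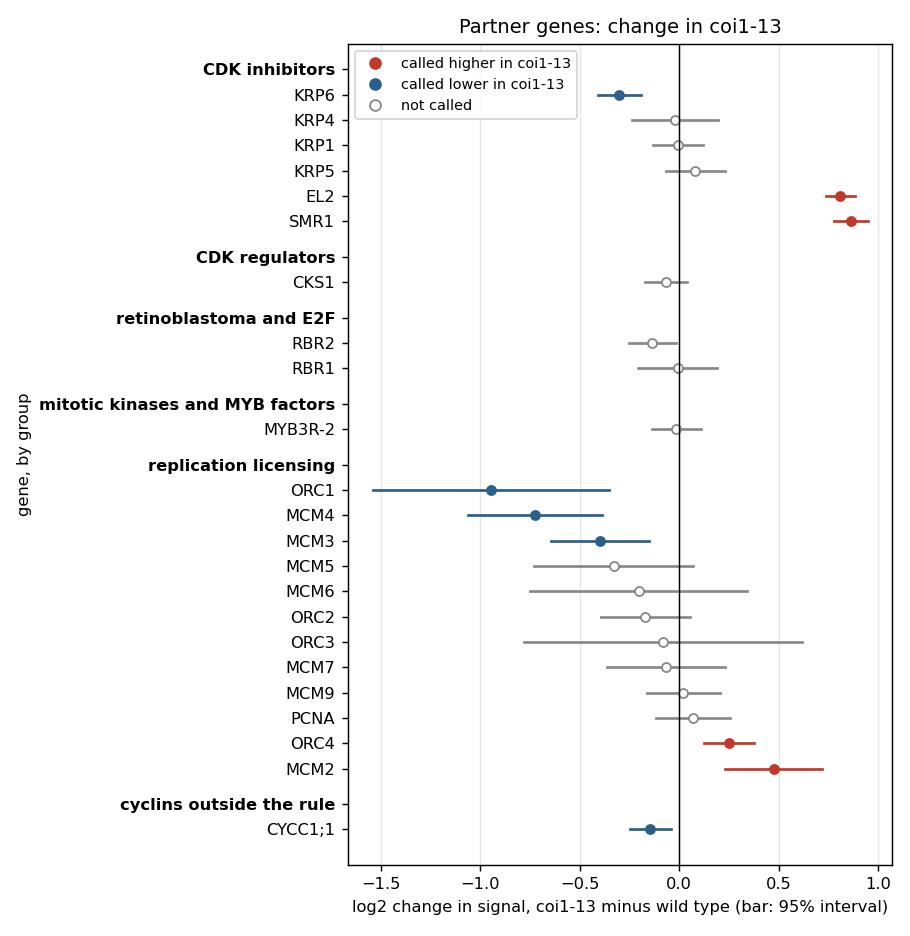
Log2 change in signal, coi1-13 minus wild type (horizontal axis), of 23 inhibitor, regulator and replication genes by group (vertical axis), each by its brightest probe set; bars are 95% intervals of the fit, before adjustment. SMR1 and EL2 lie furthest to the right with narrow bars, and ORC1 and MCM4 furthest to the left with wide ones.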

How the data were processed

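Total RNA of 6 samples was biotin-labelled and hybridised to Affymetrix rice arrays, 1 array per sample, per the labels. The deposited table holds log2 signals of 57381 probe sets. The submitters' processing notes name GCOS 1.4 and nothing else. As linear signal, every array had nearly the same trimmed mean, 500.1, so the authors appear to have scaled arrays to a common mean. Probe sets were named through the repository's platform annotation and RefSeq gene names of another assembly than the array's, without coordinates.

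After removal of 123 controls, the 34355 brightest probe sets (upper 60%, mean of at least 4.37) were fitted in limma 3.58.1 under R 4.3.3 with lmFit and a trended eBayes, on the deposited values. A call needed an adjusted p under 0.05 by Benjamini-Hochberg, over every tested probe set. The number of arrays, 3 per group, limits the precision, and the labels call the replicates biological without saying how plants were grown or pooled. The scripts were tested on simulated arrays.

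Members, lists and tests were chosen with earlier results of these data known. All called members were named. Values on all arrays are given for the 8 largest falls, up to 8 largest rises and every called A or B type cyclin, and for some others chosen after their values were seen. Up to 3 called partner genes per group were named by smallest p, and others after their values were seen. Of the marker symbols, ZEP1 also matched an unrelated gene and ZIP4 matched only an unrelated one, and both of these genes were left out. Promoter and protein motifs were planned and are not analysed here. Tables were handled with Python 3.11.15 and pandas 2.3.3.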

Additional observations from a re-analysis of the deposited data

How the results depend on the processing

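The 12 alternatives were fixed with the design. Of 23 called member probe sets, 15 kept the call under every alternative that tested them, 8 lost it under some, and 6 of 21 uncalled ones passed under some; none changed direction with a call. Under median centring 3 member probe sets (2 genes) and 3721 probe sets of the array were higher, against 5, 4 and 5679 as deposited, and the share of calls that were higher was 28.1% against 46.0%. Without the variance trend 11 member genes were lower, against 17, while 15.2% of all tested probe sets were lower, against 19.4%. Leaving out 1 array gave 14 to 15 lower and 5 to 5 higher member probe sets, 13 to 14 lower member genes, 5 to 6 lower A and B type probe sets, and 3 to 6 lower and 6 to 6 higher partner probe sets, with the value of 3 without wild type replicate 1 and again without replicate 2. With 1 array left out, 16.4% to 17.8% of all tested probe sets were lower, against 19.4% with all arrays. Median centring subtracted array medians of 5.54 to 5.56 in wild type and 5.62 to 5.75 in coi1-13. By construction this lowered the change of every probe set. The cause of the other shifts was not tested. No pairing of arrays by replicate number was seen in the signals (same-numbered deviations correlated at -0.003 to 0.001). That does not settle whether same-numbered samples were handled together, which the labels do not state. A replicate block gave 15 lower and 5 higher member probe sets. CYCB1-3, CDKF-1 and CYCL1-1 were then not called, at adjusted p-values of 0.0701, 0.0573 and 0.0616 (limma). The block also gave 5 lower A and B type probe sets, 6 lower partner probe sets, and 6336 lower and 5481 higher on the array. Signals near the negative controls, as for CYCB1-3, limit what the arrays resolve.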
